A study of Mus musculus with 2 samples.

Results

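The transcripts of the mitochondrial genome and of its copies on chromosome 1 were described in the aged mouse cortex. The set holds every annotated gene whose name starts with mt-, together with the chromosome 1 pseudogenes Gm28661 and Gm10925. These are 39 of the 55536 annotated genes, listed by name. In the gene tables the pseudogenes Gm28661 and Gm10925 are the 2 with the highest TPM of a block of 7. The list was made with earlier results of these data known. Of the 39, 13 are mRNAs, 2 are ribosomal RNAs (rRNAs) and 22 are transfer RNAs (tRNAs) of the mitochondrial genome, and 2 are the pseudogenes. On this genome 28 of the 37 mt- genes lie on the plus strand, and mt-Nd6 is the sole mRNA among the 9 on the minus strand.

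Total RNA was sequenced from the left side of the cerebral cortex in female mice of the hybrid strain B6CASTF1/J (C57BL/6J crossed with CAST/EiJ), which were 18 to 20 months old. The 2 libraries, for which 300 ng of RNA was used together with spike-ins, are numbered by the labels as biological replicates 1 and 2 of 1 group. The biosamples are separate but name a single donor entry, so the spread between the libraries may be technical. No other genotype, age or treatment was analysed here, so the values below are descriptions with no test and no p-value. All 5 neuron, 3 astrocyte, 3 oligodendrocyte and 3 microglia markers reached 1 TPM in both libraries. Of 6 markers of other tissues and regions 2 did, and their summed level over all 6 was 9.55 TPM (replicate 1) and 6.72 TPM (replicate 2). The depth on annotated genes was 32357983 expected counts (replicate 1) and 24798683 (replicate 2). At a count of 0, up to 3 counts remain possible, which equals 0.0927 CPM in replicate 1 and 0.121 CPM in replicate 2, for counting error only.

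The mitochondrial genome is a small circle that encodes core subunits of the respiratory chain and of ATP synthase, along with the rRNAs and tRNAs needed to translate them inside the organelle. Each strand is copied into a long precursor from which tRNAs are cut out, releasing most of the mRNAs and rRNAs that lie between them. Fragments of mitochondrial DNA have also been inserted into the nuclear genome over time, and a recent insert can be nearly identical in sequence to its source. Neurons depend heavily on oxidative phosphorylation, and brain tissue is rich in mitochondrial transcripts.

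The chromosome 1 copies form a block of 7 annotated pseudogenes on the minus strand between positions 24611535 and 24616197 of mm10, the genome build of the deposited tables. Gm28661 copies mt-Co2 and Gm10925 copies mt-Atp6. The others, all within 10 kb, are Gm29216 of mt-Co1, Gm28437 of mt-Co3, Gm28438 of mt-Nd3, Gm10222 of mt-Nd4l and Gm28439 of mt-Nd4. The last 60 bases of mt-Co2, mt-Atp6 and mt-Co3 are shown because they hold the only bases of these genes that lie past the end of the annotated copy; those bases are in capitals, and the stretch of the pseudogene that matches follows each gene.
mt-Co2, chrM:7637-7696, plus strand: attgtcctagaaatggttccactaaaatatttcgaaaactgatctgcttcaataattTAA
Gm28661, chr1:24614885-24614941, minus strand: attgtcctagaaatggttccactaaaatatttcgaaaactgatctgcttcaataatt
mt-Atp6, chrM:8548-8607, plus strand: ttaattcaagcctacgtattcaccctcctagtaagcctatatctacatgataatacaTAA
Gm10925, chr1:24613974-24614030, minus strand: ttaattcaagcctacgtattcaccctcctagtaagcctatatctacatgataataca
mt-Co3, chrM:9331-9390, plus strand: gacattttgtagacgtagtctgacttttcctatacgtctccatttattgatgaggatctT
Gm28437, chr1:24613189-24613247, minus strand: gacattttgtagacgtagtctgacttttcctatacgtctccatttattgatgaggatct

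Gm28661 is identical to mt-Co2 over all 681 of its bases, and Gm10925 is identical to mt-Atp6 over all 678. Gm28437, Gm10222 and Gm28439 are likewise 100% identical to their genes, over 783, 294 and 876 bases. Substitutions were found in the other 2 copies alone, and those stretches are shown with the differing bases in capitals. Positions are counted from 1 at the first base of the mitochondrial gene, whose base is given first.
mt-Co1, chrM:6381-6440, plus strand: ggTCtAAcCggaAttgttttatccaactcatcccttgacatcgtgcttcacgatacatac
Gm29216, chr1:24616138-24616197, minus strand: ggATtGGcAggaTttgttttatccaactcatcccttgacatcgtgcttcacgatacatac
mt-Nd3, chrM:9459-9518, plus strand: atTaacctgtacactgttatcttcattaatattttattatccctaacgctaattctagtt
Gm28438, chr1:24613060-24613119, minus strand: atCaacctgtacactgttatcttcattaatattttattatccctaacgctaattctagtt

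Gm29216 covers positions 1054 to 1545 of mt-Co1 and differs at 6 bases near its start (T1056A, C1057T, A1059G, A1060G, C1062A and A1066T). Gm28438 differs from mt-Nd3 at 1 base, T3C. The sequence beyond the annotated ends of the copies was not analysed here. All these comparisons used the reference sequence, and the CAST/EiJ sequence of these hybrid mice was not compared.

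These identities leave few stretches of 100 bases that belong to 1 gene alone among all annotated transcripts. Of the 100-base windows of mt-Co2 3 of 585 are its own, of mt-Atp6 3 of 582 and of mt-Co3 1 of 685. mt-Nd3 has 6 of 249 windows of its own and mt-Nd4l has 3 of 198. Gm28661, Gm10925, Gm28437, Gm10222 and Gm28439 have 0 windows of their own. mt-Co1 has 1000 of 1446 windows to itself and mt-Nd4 has 502 of 1279. mt-Nd1, mt-Nd5, mt-Nd6, mt-Cytb, mt-Atp8 and both rRNAs share no window with another transcript, and mt-Nd2 shares 30 of 939. Levels of mt-Co2, mt-Atp6, mt-Co3, mt-Nd3, mt-Nd4l and their copies are therefore uncertain gene by gene throughout, and sums over a gene and its copy are given beside them.

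The mt- genes held 7.98% of the expected counts on annotated genes in replicate 1 and 7.05% in replicate 2, a mean of 7.51% ± 0.655 (SD, n = 2). The rRNAs took most of it, with 6.19% in replicate 1 and 5.43% in replicate 2, whereas the 13 mRNAs held 1.79% and 1.62%. Gm28661 and Gm10925 held another 0.535% in replicate 1 and 0.484% in replicate 2. Expressed per length as TPM, a unit scaled to a fixed sum per library, the mt- genes made up 10.1% of the total over annotated genes in replicate 1 and 9.24% in replicate 2. In the alignment-free tables that share of TPM was 16.5% (replicate 1) and 14.8% (replicate 2). In bulk tissue, more cells rich in mitochondria and more mitochondrial RNA per cell cannot be told apart. By mean TPM 8 of the 39 members stood among the 20 most abundant of all genes, and 11 of the 13 mRNAs among the 100 most abundant. The 8 include Gm28661 and Gm10925, the 2 with the highest TPM of their block in the gene tables. In the alignment-free tables Gm28437 had 4727 TPM (replicate 1) and 4679 TPM (replicate 2), above Gm10925 at 3729 and 3888 TPM. Gm28661 and Gm10925 were listed with earlier results of these data known, so their rank is not an independent observation.

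mt-Rnr1, the RNA of the small subunit of the mitochondrial ribosome, lay at 30015 TPM (replicate 1) and 27693 TPM (replicate 2). mt-Rnr2, the RNA of the large subunit, lay at 42573 TPM (replicate 1) and 37895 TPM (replicate 2). By mean TPM mt-Rnr2 was number 4 and mt-Rnr1 number 5 among all genes, and mt-Rnr2 had the most counts of any gene. mt-Rnr2 exceeded mt-Rnr1 by 1.42-fold in replicate 1 and 1.37-fold in replicate 2, and their ranges did not overlap. Both genes are copied from the same strand next to each other, and cells build ribosomal subunits with 1 copy of each. The mean of the rRNAs was 19.2 times the median of the 13 mRNAs in replicate 1 and 17.7 times in replicate 2. The spike-in label names libraries reduced for ribosomal RNA. How far that step removed mt-Rnr1 and mt-Rnr2 was not tested, so their levels are those left in the libraries.

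**Figure D1:**
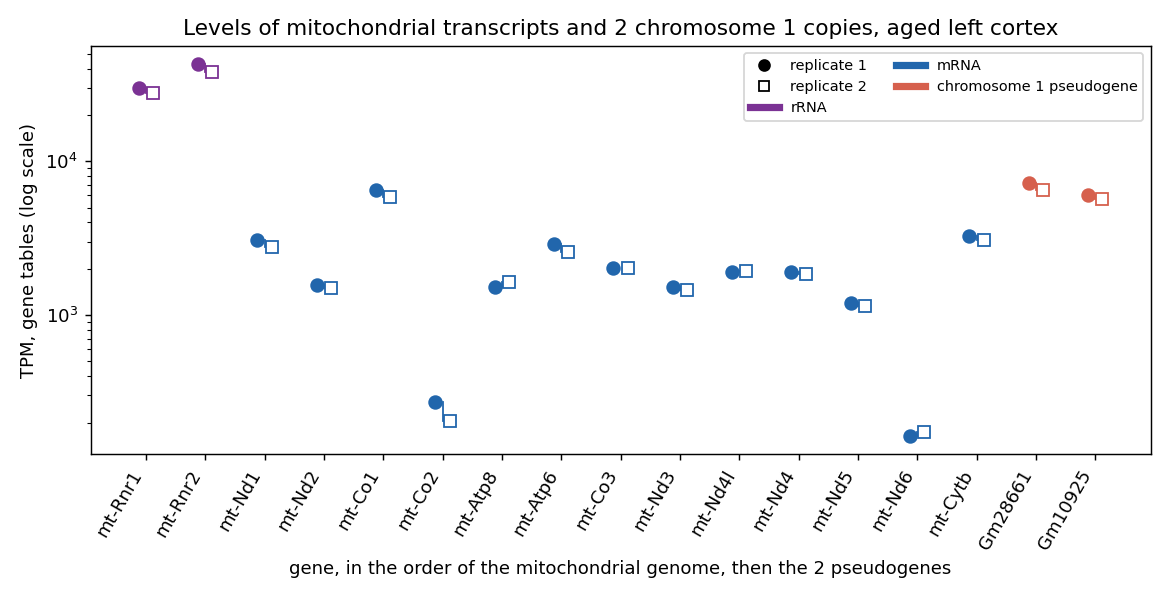
TPM of the 2 rRNAs, the 13 mRNAs and the 2 chromosome 1 pseudogenes in each library (log axis), with filled circles for replicate 1 and open squares for replicate 2, and tRNAs left out because all were at 0. The lowest rRNA value is 27693 TPM, 11 mRNAs lie between 1137 and 6482 TPM, and mt-Co2 and mt-Nd6 lie at 272 TPM or less.

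The 13 mRNAs had a median of 1873 ± 24.7 TPM (SD, n = 2). Taken as deposited, their mean levels spanned 36.6-fold. Complex I, the NADH dehydrogenase that feeds electrons into the chain, takes 7 subunits of its membrane arm from the mitochondrial genome. mt-Nd1 was the most abundant of these, at 3077 TPM (replicate 1) and 2781 TPM (replicate 2). mt-Nd4l had 1891 and 1922 TPM, and mt-Nd4 had 1904 and 1856 TPM. These genes share 7 bases and are translated from 1 bicistronic mRNA, and the ratio of mt-Nd4 to mt-Nd4l was 1.01 in replicate 1 and 0.966 in replicate 2. That ratio holds for the gene tables alone. In the alignment-free tables mt-Nd4 had 3074 and 2972 TPM and mt-Nd4l 11.1 and 11.4 TPM. mt-Nd2 had 1574 and 1496 TPM, and mt-Nd3 had 1521 and 1446 TPM. mt-Nd5 was lower than these 5, with 1198 TPM (replicate 1) and 1137 TPM (replicate 2).

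mt-Nd6 was the lowest mRNA of the gene tables in both libraries. Its level was 165 TPM (replicate 1) and 172.5 TPM (replicate 2), number 470 among all genes. It is the one mRNA of the minus strand, lies opposite mt-Nd5 with an overlap of 14 bases, and its 420 windows are all its own. mt-Nd5 exceeded it 7.28-fold in replicate 1 and 6.59-fold in replicate 2. The median of the 12 mRNAs of the plus strand exceeded mt-Nd6 by 11.5-fold and 11.0-fold. mt-Nd6 ranked last in the gene tables whether or not the pseudogenes were added to their genes. In the alignment-free tables it had 310.3 TPM (replicate 1) and 316 TPM (replicate 2), above mt-Nd4l at 11.1 and 11.4 TPM and mt-Atp8, listed at 0.

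mt-Cytb encodes cytochrome b, the single mitochondrial subunit of complex III. It stood at 3274 TPM (replicate 1) and 3067 TPM (replicate 2), the second among the mRNAs taken alone in the gene tables. In the alignment-free tables its mean of 5189 TPM lay below those of mt-Co1 (10571), mt-Atp6 (8096) and mt-Co3 (5451). In the gene tables mt-Cytb and mt-Nd1 overlapped in range, as did mt-Nd1 and mt-Atp6. Across the order of the 13 mRNAs 5 of the 12 neighbouring pairs overlapped in range between the libraries. Within each library, 3 of these 5 kept their order in both: mt-Cytb above mt-Nd1, mt-Nd1 above mt-Atp6 and mt-Nd2 above mt-Nd3. The other 2, mt-Nd4l with mt-Nd4 and mt-Atp8 with mt-Nd2, changed order between the libraries.

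Complex IV, cytochrome c oxidase, takes its 3 largest subunits from the mitochondrial genome, and mt-Co1 and mt-Co2 encode the ones that carry its redox centres. mt-Co1 was the highest mRNA, at 6482 TPM (replicate 1) and 5846 TPM (replicate 2). mt-Co3 had 2027 and 2009.9 TPM. mt-Co2 was listed at 272 TPM (replicate 1) and 204 TPM (replicate 2), below every other mRNA of the plus strand. Its identical copy Gm28661 was listed at 7221 and 6544 TPM, number 8 among all genes and above mt-Co1 in both libraries. Added together, mt-Co2 and Gm28661 came to 7493 TPM (replicate 1) and 6748 TPM (replicate 2).

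The ATP synthase subunits mt-Atp8 and mt-Atp6 are read from overlapping frames of 1 transcript. The junction is shown because its overlap is annotated to both genes, with the shared bases in capitals. The overlap is shorter than a window, and mt-Atp8 shares no window with another transcript.
mt-Atp8, chrM:7890-7969, plus strand: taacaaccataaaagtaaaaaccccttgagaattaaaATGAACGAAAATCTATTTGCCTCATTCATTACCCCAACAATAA
mt-Atp6, chrM:7927-8006, plus strand: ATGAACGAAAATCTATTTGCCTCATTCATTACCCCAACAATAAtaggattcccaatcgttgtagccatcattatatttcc

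The overlap measures 43 bases. mt-Atp8 was at 1531 TPM (replicate 1) and 1639 TPM (replicate 2). mt-Atp6, part of the proton channel, had 2907 and 2559 TPM, and its copy Gm10925 had 5990.1 and 5702 TPM. The ratio of mt-Atp6 to mt-Atp8, genes of a single mRNA, was 1.90 in replicate 1 and 1.56 in replicate 2. With Gm10925 added to mt-Atp6 the ratio was 5.81 in replicate 1 and 5.04 in replicate 2.

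How the counts were divided between each gene and its copy depended on the estimate. Gm28661 received 96.4% of the expected counts of its pair with mt-Co2 in replicate 1 and 97.0% in replicate 2. The deposited posterior mean counts placed 82.6% and 84.7% there, and the alignment-free tables, whose input is the read file, placed 86.7% and 85.1%. Gm28661 thus held most of the pair in all 3 estimates although it has no window of its own.

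Gm10925 held more of its pair than mt-Atp6 in the gene tables and less in the alignment-free tables. Its share was 67.2% in replicate 1 and 68.9% in replicate 2 by expected counts, and 61.7% and 63.9% by posterior mean counts. In the alignment-free tables its share was 29.8% in replicate 1 and 34.0% in replicate 2. Gm28437 of mt-Co3 also differed between estimates, with means of 67.6% by expected counts, 53.4% by posterior mean counts and 46.5% in the alignment-free tables.

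The other 4 copies received smaller shares of the counts of their pairs. Gm29216 took a mean of 10.8% of its pair with mt-Co1 by expected counts and 1.31% in the alignment-free tables. It covers 492 of the 1545 bases of mt-Co1, so these shares of counts are not per length. Its TPM in the gene tables was 2914 (replicate 1) and 2573 (replicate 2), number 16 among all genes. In the alignment-free tables it was 833 and 1162. Gm28438 of mt-Nd3 and Gm28439 of mt-Nd4 were at 0 expected counts in both libraries. Gm10222 of mt-Nd4l, identical over all of its bases, had 0 expected counts in replicate 1 and 23.1 in replicate 2. Its posterior mean counts were 202 and 591, or 2.40% and 9.17% of the pair.

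**Figure D2:**
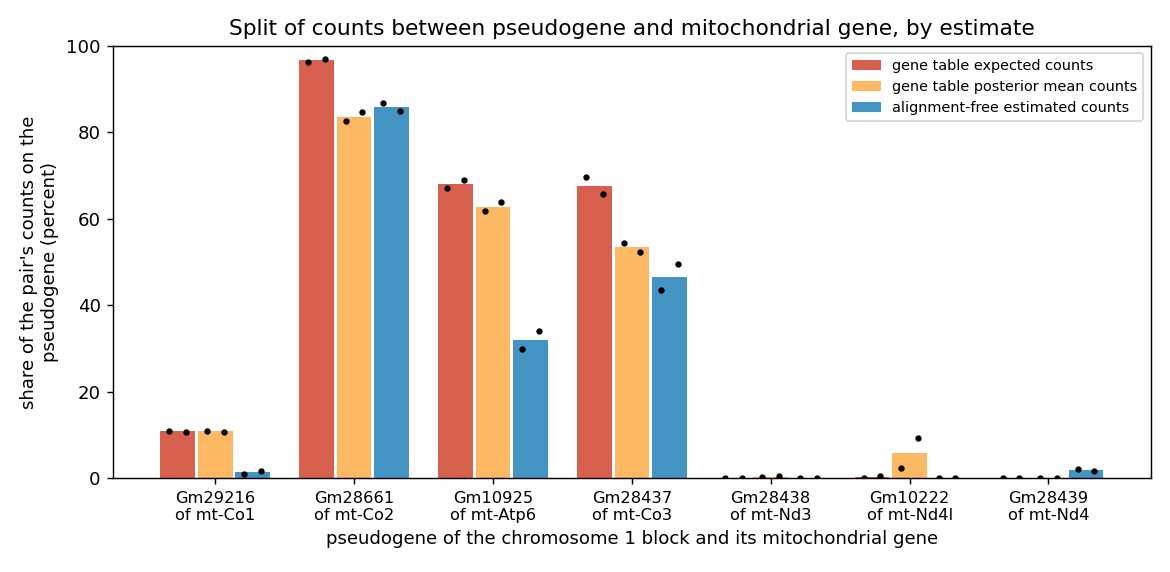
Share of the counts of each pair that was placed on the chromosome 1 pseudogene, in percent, for the 7 pairs and 3 estimates; bars are means of 2 libraries and points are the libraries (replicate 1 left). The share of Gm10925 is 68.1% by expected counts and 31.9% in the alignment-free tables, and Gm28661 stays above 82% in all 3 estimates.

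The deposited gene tables also give an interval for each TPM, whose level is not given in the sources used here. For mt-Co2 the listed 272 TPM of replicate 1 lay below an interval of 822 to 1602 TPM, and the 204 TPM of replicate 2 lay below 613 to 1472 TPM. mt-Co3 lay below its interval too, and these were the only members below it in both libraries, against 1.22% of all genes that averaged at least 10 counts. Of the 39 members 17 reached that average: the mRNAs, the rRNAs and the pair of pseudogenes. A further 11 of the 17 lay above their intervals in both libraries, against 2.06% of all genes. One of these was mt-Co1, whose 6482 TPM in replicate 1 stood beside an interval of 6258 to 6321 TPM. mt-Cytb, another, had 3274 TPM beside 3155 to 3200 TPM in that replicate. The share of all genes was not matched for abundance. It counts genes from a mean of 10 counts up, whereas the lowest of the 17 members, mt-Nd6, had 1559 (replicate 1) and 1222 (replicate 2). Counts were split into parts that were not whole, in at least 1 library, for 7 of the 17 members, against 17.4% of all genes. The posterior mean count of mt-Co2 in replicate 1 was 17159 with a posterior SD of 2716, and that of Gm28661 was 81185 with the same SD. mt-Nd6 and mt-Cytb, which share no window, had a posterior SD of 0.

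Adding the TPM of each copy to its gene reordered the top of the list in the gene tables. mt-Co1 with Gm29216 came first at 8908 ± 691 TPM (SD, n = 2), then mt-Atp6 with Gm10925 at 8579 ± 450 TPM, mt-Co2 with Gm28661 at 7120.4 ± 526 TPM and mt-Co3 with Gm28437 at 6266 ± 564 TPM. mt-Cytb followed at 3170.5 ± 147 TPM. The sum for mt-Co1 includes the TPM of Gm29216, a copy of less than the whole gene. In summed expected counts per base of effective length of the gene, the mt-Atp6 pair came first with 199.9 (replicate 1) and 138.8 (replicate 2), then the mt-Co2 pair with 168 and 113, and the mt-Co1 pair with 164 and 110.4. In the alignment-free tables the sums were 13259 ± 1019 TPM for mt-Co2, 11905 ± 734 TPM for mt-Atp6, 11568 ± 591 TPM for mt-Co1 and 10154 ± 997 TPM for mt-Co3. The order among the first 3 pairs thus depended on the estimate, and mt-Co3 followed them in each. In the summed TPM of the gene tables the ranges of the first and the second overlapped, and mt-Co2 moved up from the position next to mt-Nd6 to the third. On these sums the 12 mRNAs other than mt-Nd6 spanned 7.63-fold, against 25.9-fold for the genes alone. Including mt-Nd6, the span was 52.8-fold with the copies added.

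**Figure D3:**
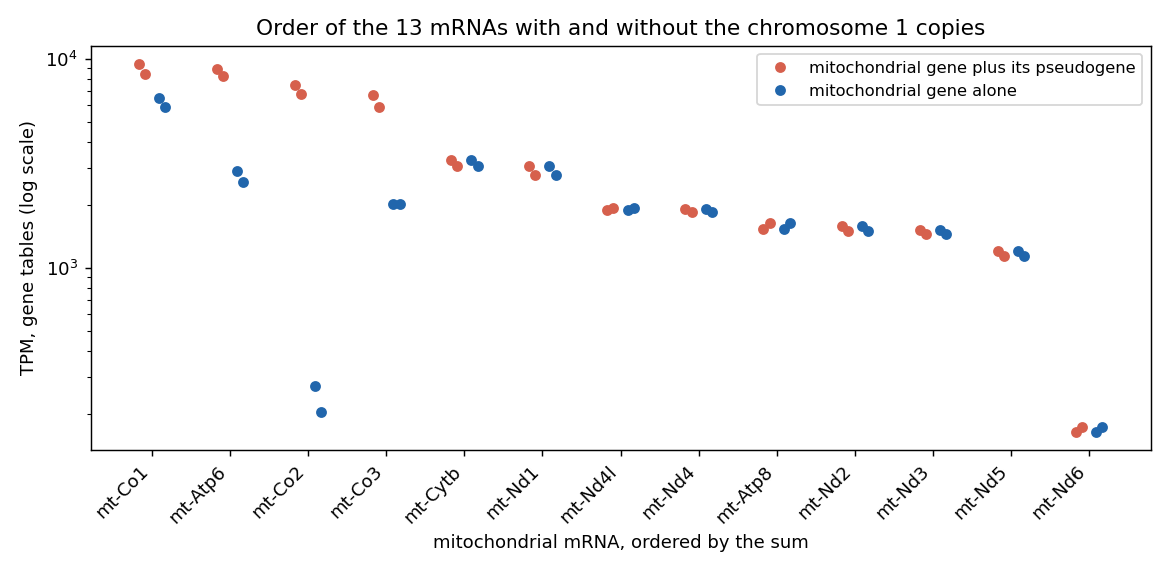
TPM of the 13 mRNAs in each library (log axis), ordered by the level of the gene plus its chromosome 1 copy; left points are that sum and right points the gene alone, 2 libraries each. mt-Co2 has 7120.4 TPM with Gm28661 and 237.8 TPM alone, and mt-Nd6 is lowest on both scales of the gene tables.

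All 22 tRNAs had 0 counts in both libraries and in both kinds of table. They are 59 to 75 bases long, from mt-Ts2, a serine tRNA, to mt-Tl1, a leucine tRNA, both shown to give the length of the molecules.
mt-Ts2, chrM:11613-11671, plus strand: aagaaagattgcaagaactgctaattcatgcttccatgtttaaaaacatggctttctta
mt-Tl1, chrM:2676-2750, plus strand: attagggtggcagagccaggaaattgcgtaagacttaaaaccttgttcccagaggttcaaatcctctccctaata

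In the gene tables the effective length of a gene was its annotated length less 99 bases, and it was 0 for all 22 tRNAs. Every one of the 2398 annotated genes under 100 bases had an effective length of 0, and 0 of them had a count. In the alignment-free tables the tRNAs had effective lengths of 22.1 to 25.7 bases and were also at 0. The values therefore give no measure of tRNA abundance, and the 22 could not be ranked.

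Short mRNAs were listed differently in the 2 kinds of table. mt-Atp8, of 204 bases, had 1585 ± 76.3 TPM in the gene tables (SD, n = 2) and was listed at 0 in both alignment-free tables. mt-Nd4l, of 297 bases, had 1906 ± 21.8 TPM in the gene tables and 11.1 and 11.4 TPM in the alignment-free tables of replicates 1 and 2. These were the 2 members more than 2-fold higher in the gene tables, against 2.45% of all genes. mt-Co2, mt-Atp6 and mt-Co3 were more than 2-fold lower in the gene tables, against 18.4% of all genes. The ratio of gene-table to alignment-free TPM had a median of 0.597 over the 12 mRNAs above 0 and 0.612 over 17933 genes.

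Subunits of each complex come from both genomes, and listed nuclear subunits were compared with the mitochondrial ones per length. In complex I the median of 7 mitochondrial mRNAs was 1535 ± 55.4 TPM and that of 7 nuclear core subunits was 98.0 ± 6.65 TPM (SD, n = 2), a ratio of 15.7. Among the nuclear subunits Ndufv1, which binds NADH, had 110.3 TPM and Ndufs8, which carries iron-sulfur clusters, had 58.0 TPM. Even mt-Nd6, at 169 ± 5.57 TPM, lay above both.

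In complex III mt-Cytb lay 33.9-fold above the median of 4 nuclear subunits, 93.6 ± 7.27 TPM. Uqcrc1 had 161 TPM, Uqcrc2 had 101 TPM, both core proteins, and the Rieske iron-sulfur protein Uqcrfs1 had 63.5 TPM. In complex IV the median of mt-Co1, mt-Co2 and mt-Co3 was 8.24 times that of 10 nuclear subunits, 246 ± 19.3 TPM, and 29.0 times with the chromosome 1 copies added. Cox4i1, the largest nuclear subunit, had 474 TPM, and the small subunits Cox8a and Cox7b had 389 TPM and 133 TPM. mt-Co2 taken alone lay within the range of the nuclear subunits by TPM, at 237.8 TPM. It lay above Cox4i1 by posterior mean TPM, 1125 against 459, and in the alignment-free tables, 1853 against 802 TPM.

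In complex V the median of mt-Atp8 and mt-Atp6 was 13.3 times that of 8 nuclear subunits, 163 ± 21.5 TPM, and 31.3 times with Gm10925 added. Atp5b, the catalytic beta subunit, had 724 TPM and Atp5a1, the alpha subunit, had 309.8 TPM, whereas Atp5c1, the gamma subunit, had 107 TPM. The ratios in the alignment-free tables, without added copies, were 10.9 for complex I, 23.6 for complex III, 11.8 for complex IV and 10.9 for complex V. These medians include mt-Nd4l at 11.2 TPM and mt-Atp8 at 0; without these mRNAs the ratio was 13.5 for complex I and 21.9 for complex V. The mitochondrial median exceeded the nuclear one in both kinds of table for all 4 complexes.

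**Figure D4:**
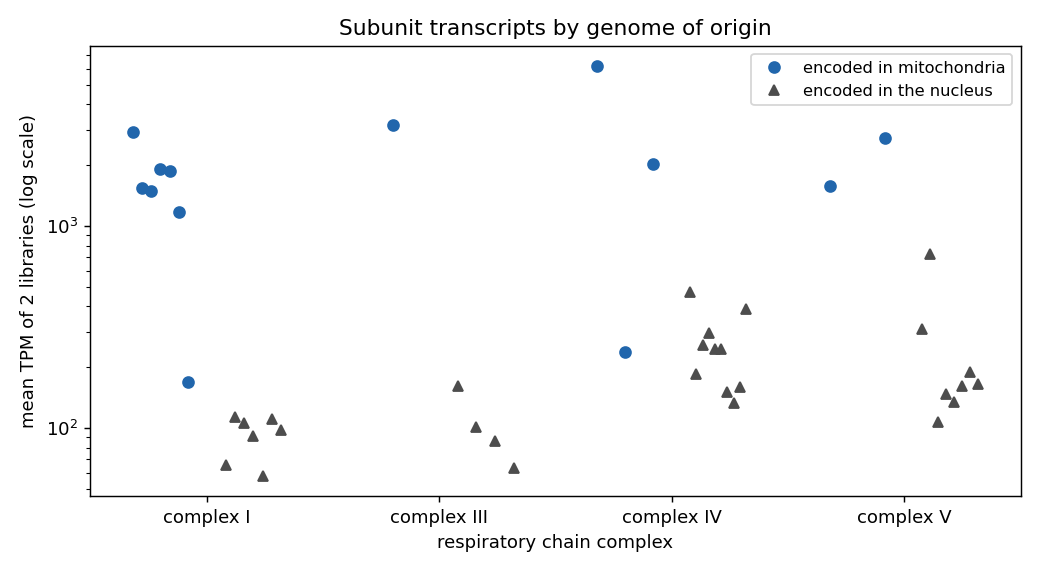
Mean TPM of 2 libraries (log axis) for mitochondrial subunit mRNAs (circles) and listed nuclear subunits (triangles) of complexes I, III, IV and V, without added copies. Circles lie above all triangles of their complex except mt-Co2 in complex IV, at 237.8 TPM by this estimate.

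The nuclear genes that copy, process, modify and use mitochondrial RNA were expressed at far lower levels. All 67 annotated genes of 4 such lists reached 1 TPM in each library, as did 12844 of 22015 nuclear protein-coding genes. The median of the 67 was 9.93 ± 0.453 TPM (SD, n = 2), against 15.8 TPM for those 12844 genes. Of the 15 genes for transcription and replication the median was 7.49 ± 0.417 TPM. Polg, the mitochondrial DNA polymerase, had 49.7 TPM, Polrmt, the RNA polymerase of mitochondria, had 23.3 TPM, and Polg2, the accessory subunit of the DNA polymerase, had 1.32 TPM. The 19 genes for processing and stability had a median of 13.1 ± 0.530 TPM. Among them Fastk, whose mitochondrial form is needed for the mt-Nd6 mRNA, had 54.3 TPM, Grsf1, an RNA-binding protein of mitochondrial RNA granules, had 44.0 TPM, and Fastkd5, needed in human cells for cuts that are not at tRNAs, had 4.33 TPM.

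The 16 annotated genes for RNA modification had a median of 9.05 ± 0.993 TPM. Nsun2, a cytosine methyltransferase that also acts on cytosolic tRNAs, had 38.2 TPM, Trnt1, which adds the CCA end to tRNAs, had 22.3 TPM, and Tfb1m, which methylates mt-Rnr1, had 3.06 TPM. The 17 mitochondrial aminoacyl-tRNA synthetases had a median of 10.6 ± 0.827 TPM, from Hars2 at 17.7 TPM and Vars2 at 17.3 TPM down to Pars2 at 2.75 TPM. The tRNAs that these enzymes charge were the members listed at 0.

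Between the libraries the members were compared by ratio. The log2 ratio of replicate 1 to replicate 2, after TMM scaling, had a median of 0.11 over the 13 mRNAs and ranged from -0.059 for mt-Atp8 to 0.45 for mt-Co2. Of the 13 mRNAs 11 lay above 0, against 50.0% of 18246 genes. mt-Rnr1 had a log2 ratio of 0.16, mt-Rnr2 of 0.21, Gm10925 of 0.11 and Gm28661 of 0.18. 0 of the 17 members were more than 2-fold apart, against 5.46% of all genes. At that share 0 of 17 does not set the members apart, and all genes here include genes with far fewer counts. With the counts of Gm28661 added, the log2 ratio of mt-Co2 was 0.19.

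The sign of these ratios depended on the scaling. Scaled on the spike-ins, the median of the 13 mRNAs was -0.047 with 4 of 13 above 0, while the median of all genes was -0.16. A scaling shifts all genes by about the same amount, so the distance of the mRNA median from the median of all genes, 0.11, hardly depends on it. After TMM scaling all 29 nuclear subunits of complexes I, III, IV and V had ratios above 0, with a median of 0.23, which was 0.072 on the spike-ins. The 67 nuclear genes of mitochondrial RNA had a median of 0.019 after TMM scaling, with 35 above 0 and 32 below, and a median of -0.14 on the spike-ins.

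**Figure D5:**
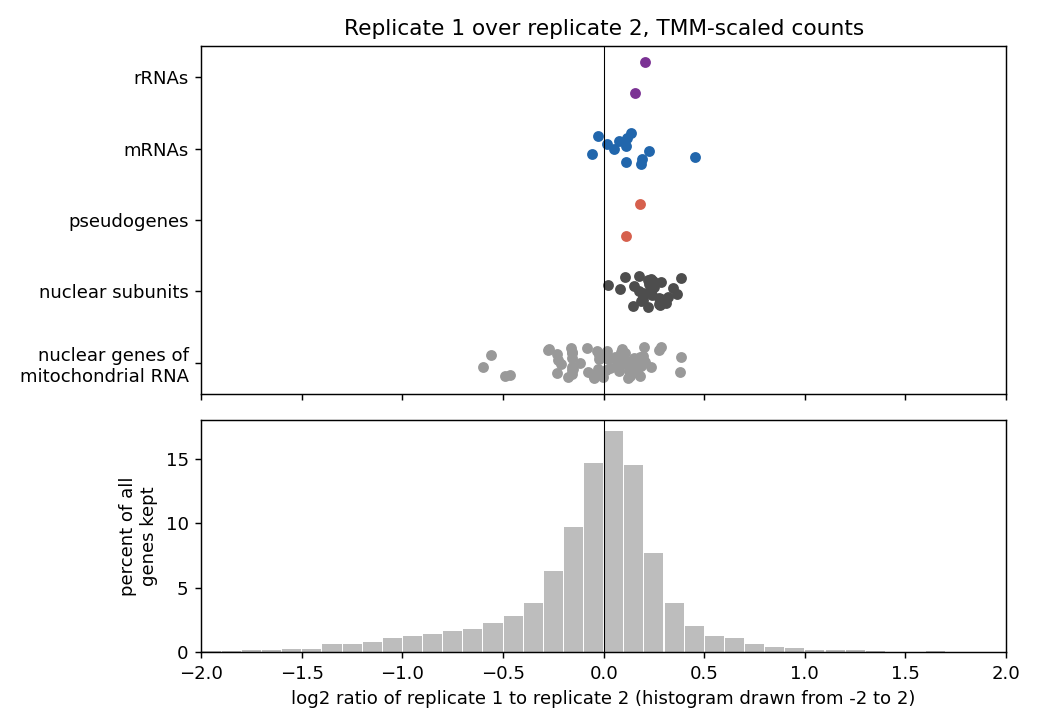
Log2 ratio of replicate 1 to replicate 2 after TMM scaling, by group of genes above (1 point per gene) and as a histogram of 18246 genes below (79 genes beyond 2 in either direction are not drawn). The 17 members kept lie between -0.059 and 0.45, while the middle 50% of all genes lies between -0.21 and 0.15.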

How the data were processed

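Both libraries are total RNA-seq with a gene table and transcript tables apiece. Per the README deposited beside them, values refer to mm10 and the GENCODE M21 annotation, with gene tables derived from a transcriptome alignment and the alignment-free transcript tables from the reads. Aligner and quantifier names: not given in the sources used here. The authors' gene tables, per the file headers, hold expected counts (not normalized), TPM, posterior mean TPM, a posterior count SD and a TPM interval; their alignment-free tables give an estimated count and a TPM per transcript. The interval bounds are handled here as a score, since the deposited files do not state their level.

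Numbered short-RNA entries (26248) and 97 spike-ins were left out of totals; the spike-ins' share of gene-table counts was 0.452% (replicate 1) and 0.406% (replicate 2). Alignment-free values were summed to genes. Sequences came from the GENCODE M21 transcripts. Windows of 100 bases were compared over all annotated transcripts. Counts within 0.005 of a whole number were called whole.

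For ratios, the authors' expected counts were rounded, genes averaging at least 10 counts were kept, and log2 CPM with a prior count of 2 was computed with edgeR 4.0.16 (TMM) in R 4.3.3; DESeq2 1.42.0 size factors were an alternative. The ratio step was tested on simulated data. With 1 group there was no test. All mRNAs, rRNAs and pseudogenes are named; from each nuclear list the 2 most and 1 least abundant genes are named, except 1 that is not reported here. Of 17 listed modification genes, Trmt61b matched no annotated gene. The members and lists were chosen with earlier results of these data known. No molecular identifiers were available, so counting floors cover counting error only.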

Additional observations from a re-analysis of the deposited data

How the results depend on the processing

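The mitochondrial share of counts, 7.51%, was 8.30% with the 7 pseudogenes of the chromosome 1 block counted too. The median level of the 13 mRNAs, 1873 TPM, was 2655 TPM in the alignment-free tables, 1738 TPM by posterior mean TPM, 4002 TPM over protein-coding genes alone and 1917 TPM with the copies added. The fold range of the mRNAs, 36.6, was 941 in the alignment-free tables without mt-Atp8 at 0, 42.8 in counts per 1000 bases and 52.8 with the copies added, an alternative chosen after seeing the data. The share of Gm28661 and Gm10925 in the counts on mt- genes and both pseudogenes, 6.35%, was 3.50% in the alignment-free tables, 9.44% for the whole block and 23.0% without the rRNAs. The median log2 ratio of the mRNAs, 0.11, was -0.047 on spike-in scaling, 0.14 with no filter and 0.20 in the alignment-free tables. The median of the nuclear genes of mitochondrial RNA, 9.93 TPM, was 16.7 TPM in the alignment-free tables, 10.5 TPM by posterior mean TPM and 21.2 TPM over protein-coding genes alone. The order of the sums of gene and copy also changed with counts per base, another alternative chosen after seeing the data. The values over protein-coding genes alone, without the rRNAs, for the whole block and with copies added follow from changing the total or the genes counted. The cause of the other shifts was not tested. Without either replicate in turn, the share ran from 7.05% to 7.98%, the rRNA share from 5.43% to 6.19%, the mRNA median from 1856 to 1891 TPM, the fold range from 33.9 to 39.4, the pseudogene share from 6.28% to 6.42% and the nuclear median from 9.61 to 10.25 TPM, with 0 tRNAs counted each time. Single members moved by more than their SD in 17 of 17 cases in the alignment-free tables and over protein-coding genes alone, and in 9 of 17 by posterior mean TPM. Rescaling to protein-coding genes multiplies every TPM of a library by the same factor, so that count was fixed in advance. The ratio of gene-table to alignment-free TPM had a median of 0.612 over 17933 genes, so that shift is not particular to the members either. No paired analysis was possible because both libraries belong to 1 group. At any depth, Gm28661 has 0 windows of 100 bases in the reference sequence that mt-Co2 lacks.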
